A study of Mus musculus with 7 samples.

Results

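The genes that build the contacts between endothelial cells were followed in cultured mouse lung endothelial cells (MLEC). The cells came from mice with and without endothelial deletion of *Adm*, which encodes the vasoactive peptide adrenomedullin (AM). The 9 genes were *Cdh5*, *Ctnna1*, *Ctnnb1*, *Cldn5*, *Ocln*, *Tjp1*, *F11r*, *Jam2* and *Esam*, chosen by symbol from the 38472 genes of the expression table, and each symbol matched a row. RNA was sequenced from 4 wild type (WT) libraries (a, c, e, f) and from 3 libraries of AM EC-KO cells (b, d, g), all of C57BL/6 background, and the labels give neither age nor sex. In AM EC-KO mice, *Adm* is flanked by loxP sites and removed by Cre recombinase driven by the *Cdh5* promoter, so that deletion is meant for endothelial cells and *Cdh5* is both the driver's gene and a gene measured here. The cells were taken from collagenase-digested lungs with beads against PECAM-1, grown, sorted again with beads against ICAM-2 and passaged, with lungs of 3 mice used for an isolation, and the sequenced cells are described as several MLEC preparations, but which library came from which is not given, so that part of the spread behind the p-values below may be technical.

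Adherens junctions hold endothelial cells together through VE-cadherin, the product of *Cdh5*, whose outer part binds the same protein on the neighbouring cell and whose inner part binds β-catenin (*Ctnnb1*), which is joined by α-catenin (*Ctnna1*) to the actin cytoskeleton. Tight junctions seal the cleft between cells with claudin-5 (*Cldn5*) and occludin (*Ocln*), both anchored by the scaffold ZO-1 (*Tjp1*). JAM-A (*F11r*), JAM-B (*Jam2*) and ESAM (*Esam*) are immunoglobulin-like adhesion molecules of the same contacts, and leukocytes use them on their way through the endothelium. In lung, as in other organs, these proteins set how much fluid and protein leaves the vessel.

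Expression was given as FPKM, fragments per kilobase of transcript scaled to the mapped reads of a library, a value per length that allows levels of different genes to be compared. The sum of FPKM lay between 516082 in WT e and 563134 in WT c. From the steps of 1 read in the low values, 6.4 to 7.7 M mapped reads per library were estimated, and 44.2 to 52.1% of those values came out whole to 0.1 read, where chance gives 20%, so that exact read counts were not recovered. *Adm* was at 48.2, 70.1, 76.1 and 43.8 FPKM for WT (a, c, e, f) and at 9.31, 17.2 and 0.750 FPKM for AM EC-KO (b, d, g), so every library labelled AM EC-KO was below every WT library. The AM EC-KO mean was 15.2% of the WT mean, so *Adm* RNA was reduced, unevenly over the 3 libraries, and not absent. Markers of vascular endothelium were high in all 7 libraries. Their 12 genes summed to 3184 to 3761 FPKM in WT and to 3191 to 3622 in AM EC-KO. The sum was lowest in WT e, where *Emcn* was at 571 FPKM against 1211 to 1337 FPKM in the other 6. Of the 11 tested markers, 4 were highest in WT e. WT e stood apart by the fibroblast gene *Dcn*, at 227 FPKM there but only 2.83 to 8.47 FPKM in the other 6, and the 10 fibroblast markers summed to 408 FPKM in WT e and to 21.3 to 102 FPKM elsewhere. Results that rest on WT e are therefore given without it as well, and the part of the fibroblast genes in them was not tested.

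Promoter sequence from the RefSeq table (GRCm38.p6) was examined for 5 of the 9 genes. *Cldn5*, *F11r* and *Tjp1* include the most variable gene of the group and stand for a claudin, a JAM and the scaffold beneath them. The promoters of these 3 genes are shown. Each is the stretch of up to 250 bases before an annotated start site, written 5′ to 3′ on the strand of the gene, at chr16:18776597-18776846 on the plus strand for *Cldn5*, chr1:171437319-171437534 on the plus strand for *F11r* and chr7:65371245-65371494 on the minus strand for *Tjp1*. Capitals mark GGAA, the core letters of ETS factor motifs, and CCAAT, the letters of the CCAAT box, both searched on both strands so that TTCC and ATTGG are the same matches read from the other strand.
Cldn5: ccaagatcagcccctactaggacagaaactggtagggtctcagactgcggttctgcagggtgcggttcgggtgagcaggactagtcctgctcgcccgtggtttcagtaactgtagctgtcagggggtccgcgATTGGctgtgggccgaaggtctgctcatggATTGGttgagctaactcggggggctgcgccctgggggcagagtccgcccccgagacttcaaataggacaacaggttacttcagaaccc
F11r: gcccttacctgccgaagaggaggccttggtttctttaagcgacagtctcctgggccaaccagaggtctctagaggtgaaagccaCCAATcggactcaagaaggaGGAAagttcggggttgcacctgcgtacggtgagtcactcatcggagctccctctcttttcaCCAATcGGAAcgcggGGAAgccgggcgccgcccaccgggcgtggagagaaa
Tjp1: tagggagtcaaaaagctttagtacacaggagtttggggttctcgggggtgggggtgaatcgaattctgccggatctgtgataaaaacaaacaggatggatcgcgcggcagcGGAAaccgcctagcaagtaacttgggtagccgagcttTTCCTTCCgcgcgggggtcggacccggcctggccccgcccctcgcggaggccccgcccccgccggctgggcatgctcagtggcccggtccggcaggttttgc

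The *Cldn5* stretch held 0 matches to GGAA and 2 to CCAAT. Of the 32851 mouse promoters of the table, 93.4% held at least 1 GGAA in their 250 bases, with a median of 3 matches, and 33.8% held CCAAT. *F11r* had 3 matches to GGAA and 2 to CCAAT, and *Tjp1* had 3 to GGAA and 0 to CCAAT. The stretch before the first listed start of *Ctnnb1* had 3 and 2 such matches, and that of *Ocln* 2 and 0. GC content was 59.6% in *Cldn5*, 59.3% in *F11r*, 63.2% in *Tjp1*, 74.8% in *Ctnnb1* and 64% in *Ocln*, against a median of 52.4% over all promoters. The FOX motif GTAAACA, held by 3.17% of promoters, and the SOX motif AACAAT, held by 9.42%, were in none of the stretches of these 5 genes. These are letter matches and describe the sequence only.

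*Cdh5* (ENSMUSG00000031871, chromosome 8, 104101625 to 104144511, plus strand) was the most strongly expressed of the genes that had a value in every library. It was at 287, 393, 394 and 311 FPKM for WT (a, c, e, f) against 259, 295 and 281 FPKM for AM EC-KO (b, d, g). These values placed it between the 97.7th and the 98.8th percentile of tested genes in every library. WT c, e and f were above all AM EC-KO libraries, while WT a lay among them, so the groups overlapped. The mean was 346 ± 55.3 FPKM (SD, n = 4) in WT and 278 ± 17.8 FPKM (SD, n = 3) in AM EC-KO, which is 80.4% of the WT mean.

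*Ctnna1* (ENSMUSG00000037815, chromosome 18, 35118859 to 35254779, plus strand), which ties the cadherin complex to actin, was the steadiest of the 7 genes. It was at 176, 199.6, 183 and 190.5 FPKM for WT (a, c, e, f) against 166, 165 and 173 FPKM for AM EC-KO (b, d, g). The highest library was only 1.21 times the lowest, and the log2 range over libraries was at the 14.3rd percentile of the 6554 genes that averaged 10 FPKM or more and had a value above 0 in each library. All AM EC-KO libraries were below all WT libraries, with WT a and AM EC-KO g as the closest values. The means were 187 ± 10.03 FPKM (SD, n = 4) in WT and 168 ± 4.61 FPKM (SD, n = 3) in AM EC-KO. *Ctnna1* shares 95 exon bases with *Lrrtm2* on the opposite strand, and whether reads were counted by strand is not given in the sources used here.

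*Ctnnb1* (ENSMUSG00000006932, chromosome 9, 120929216 to 120960507, plus strand), the β-catenin gene, had a value of 380.0 FPKM in WT a and was listed at 0 in the other 6 libraries. The authors' group values for the same row were 460.5 FPKM for WT and 422 for AM EC-KO. Those group values are at odds with 6 libraries at 0, and a library value of 0 can be a failed estimate, so its genotypes are not compared here. The same pattern was not particular to *Ctnnb1*: of 7249 genes with a group value of at least 10 FPKM in both genotypes, 632 were listed at 0 in at least 1 library and 95, or 1.31%, in at least 6. The row of *Ctnnb1* lists 10 transcripts, and the gene shares 759 exon bases with *Ulk4* on the opposite strand, which was listed at 0 in all 7 libraries.

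*Cldn5* (ENSMUSG00000041378, chromosome 16, 18776847 to 18778262, plus strand), the main claudin of endothelium, varied most. It was at 12.4, 50.8, 80.0 and 48.1 FPKM for WT (a, c, e, f) and at 13.04, 21.7 and 41.8 FPKM for AM EC-KO (b, d, g). WT a was as low as AM EC-KO b, and the other 3 WT libraries were above all AM EC-KO libraries, so the groups overlapped through WT a alone. The range was 6.45-fold, and the log2 range of 2.59 was at the 98.7th percentile of the 6554 genes. About 123 reads in WT a and 804 in WT e were estimated behind these values, which gives a counting error of 9% and 3.5%, far less than the range. The means were 47.8 ± 27.7 FPKM (SD, n = 4) in WT and 25.5 ± 14.8 FPKM (SD, n = 3) in AM EC-KO.

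*Tjp1* (ENSMUSG00000030516, chromosome 7, 65296165 to 65527781, minus strand) encodes ZO-1, which links claudins and JAMs to actin. It was at 28.8, 36.0, 50.4 and 32.5 FPKM for WT (a, c, e, f). For AM EC-KO (b, d, g) it was at 27.6, 26.8 and 28.5 FPKM. All AM EC-KO libraries were below all WT libraries, although WT a exceeded AM EC-KO g by only a small step, and WT e was well above every other library. The means were 36.9 ± 9.47 FPKM (SD, n = 4) and 27.7 ± 0.859 FPKM (SD, n = 3). The interval deposited for this row covers 0.186% of the gene's span, a stretch of 430 bases at chr7:65370810-65371239 just after the promoter shown above, and how the value was assigned to the gene's transcripts is not given in the sources used here.

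*Ocln* (ENSMUSG00000021638, chromosome 13, 100496507 to 100552718, minus strand), the occludin gene, was at 8.10 FPKM in WT e and was listed at 0 in the other 6 libraries. The authors' group values were 2.51 FPKM for WT and 0.373 for AM EC-KO, so the group value of AM EC-KO was above 0 while each of its libraries was at 0. The deposited interval holds 332 bases, or 0.591% of the gene's span. Epithelial cells also make occludin, and WT e was the single library with the lung epithelial genes *Sftpc* (10.3 FPKM), *Sftpb* (2.08 FPKM) and *Sftpa1* (0.296 FPKM) above 0. The 12 epithelial markers summed to 25.5 FPKM in WT e, to 14.4 to 19.7 FPKM in the other WT libraries and to 14.0 to 15.8 FPKM in AM EC-KO. Of the sum in WT e, *Krt18* made up 11.7 FPKM. In WT e the epithelial genes *Cdh1*, *Cldn18*, *Ager* and *Nkx2-1* were listed at 0 and *Epcam* was at 0.0352 FPKM. *Ager* was listed at 0 in all 7 libraries while the authors' group values were 0.585 FPKM for WT and 0.905 for AM EC-KO, so its 0 cannot be read as absence. The part of these genes in the *Ocln* value was not tested, and the genotypes are not compared for this gene.

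*F11r* (ENSMUSG00000038235, chromosome 1, 171437535 to 171464603, plus strand), which encodes JAM-A, was at 77.4, 85.3, 110.1 and 81.9 FPKM for WT (a, c, e, f) and at 72.6, 66.7 and 79.4 FPKM for AM EC-KO (b, d, g). WT e was the highest library, and the groups overlapped where AM EC-KO g exceeded WT a. The means were 88.7 ± 14.7 FPKM (SD, n = 4) in WT and 72.9 ± 6.38 FPKM (SD, n = 3) in AM EC-KO.

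*Jam2* (ENSMUSG00000053062, chromosome 16, 84774123 to 84825928, plus strand), which encodes JAM-B, was the lowest of the 7 genes. It was at 9.93, 8.93, 28.0 and 26.8 FPKM for WT (a, c, e, f) and at 10.7, 14.6 and 19.0 FPKM for AM EC-KO (b, d, g). The WT libraries split into a pair below 10 FPKM and a pair above 26 FPKM, and all AM EC-KO libraries lay between these pairs. The range was 3.13-fold, at the 95.1st percentile of log2 ranges, and 293 reads in WT c and 867 in WT e were estimated behind its extremes. WT averaged 18.4 ± 10.4 FPKM (SD, n = 4) and AM EC-KO 14.7 ± 4.13 FPKM (SD, n = 3).

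*Esam* (ENSMUSG00000001946, chromosome 9, 37528078 to 37538319, plus strand), an adhesion molecule of endothelium and platelets, was at 109, 121, 134 and 170.0 FPKM for WT (a, c, e, f). For AM EC-KO (b, d, g) it was at 96.5, 106 and 150.01 FPKM. AM EC-KO g was above all WT libraries except WT f, so the groups overlapped. The means were 134 ± 26.2 FPKM (SD, n = 4) and 117 ± 28.6 FPKM (SD, n = 3).

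**Figure D1:**
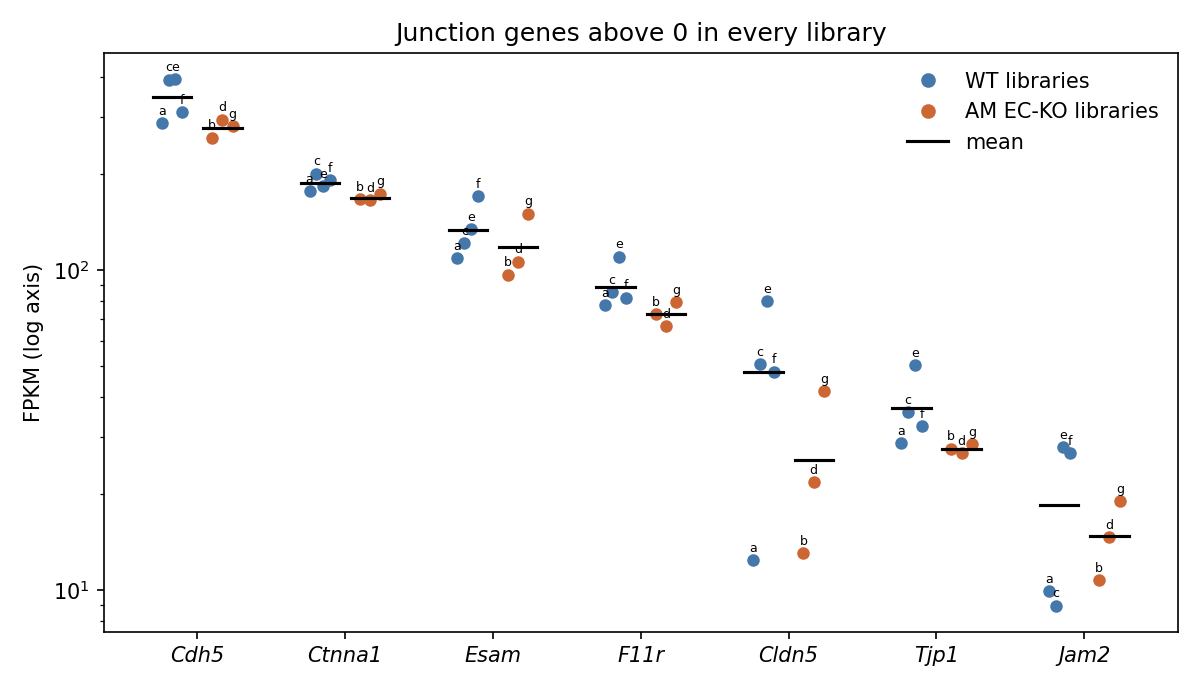
FPKM per library (log axis) of the 7 genes above 0 in every library, WT libraries in blue, AM EC-KO libraries in orange, each point marked with its library letter and bars at the group means. *Cldn5* spans 12.4 to 80.0 FPKM and *Jam2* 8.93 to 28.0 FPKM, while *Ctnna1* stays between 165 and 199.6 FPKM.

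The order of levels was nearly the same in every library. Over the 7 libraries *Cdh5* averaged 317 ± 54.3 FPKM (SD), *Ctnna1* 179 ± 12.8, *Esam* 127 ± 26.3, *F11r* 81.9 ± 13.9, *Cldn5* 38.3 ± 24.4, *Tjp1* 32.9 ± 8.34 and *Jam2* 16.8 ± 7.97 FPKM. Neighbours in this order were compared within libraries by a two-sided exact paired permutation test on log2(FPKM + 1), with p adjusted over the 6 pairs. In 5 of the 6 pairs the higher gene was above the lower in 7 of 7 libraries (exact p = 0.0156, the smallest that 128 sign flips allow, adjusted p = 0.0187). The pairs and their direction were taken from these same values, so the p-values describe how steady the order was and are no independent support. The place of *Tjp1* also rests on a value whose assignment to transcripts is not given. Between *Cldn5* and *Tjp1* the mean log2 difference was -0.03 with a range of -1.15 to 0.66, *Cldn5* was higher in 4 of 7 libraries, and no difference was shown (exact p = 0.922). The order could not be extended to *Ctnnb1* and *Ocln*.

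Levels relative to VE-cadherin showed how far the genes moved apart within a library. The ratio of *Cldn5* to *Cdh5* was 0.0432, 0.129, 0.203 and 0.155 for WT (a, c, e, f) and 0.0503, 0.0737 and 0.149 in AM EC-KO (b, d, g). WT a and AM EC-KO b were lowest in this ratio too, so *Cldn5* was low in them relative to *Cdh5* and not only in FPKM. The ratio of *Ctnna1* to *Cdh5*, added after the values were seen, stayed between 0.464 and 0.638. *Esam* to *Cdh5*, added likewise, lay between 0.308 and 0.546, with WT f and AM EC-KO g at 0.546 and 0.533 and the other 5 libraries at 0.381 or less. The balance of the JAM genes, *F11r* to *Jam2*, went from 9.56 in WT c to 3.05 in WT f, with 6.78, 4.57 and 4.19 in AM EC-KO (b, d, g).

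Some of the genes were ordered by library letter. *Jam2* and *Esam* were higher in each of libraries e, f and g than in any of a, b, c and d, a pattern held by 2 of the 7 genes and by 11.6% of all 15604 tested genes. The opposite pattern, with e, f and g below the rest, was held by 0 of the 7 and by 6.68% of all genes. WT e had the highest value in 5 of the 7 genes, all but *Ctnna1* and *Esam*, against 31.0% of all tested genes. Letters are names only: the labels give no batch, and which indexed libraries shared a sequencing lane is not given in the sources used here. Among the 21 pairs of these genes, Pearson's r over the same 7 libraries, given as a description, ran from 0.11 for *Jam2* and *Ctnna1* to 0.96 for *Tjp1* and *F11r*.

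**Figure D2:**
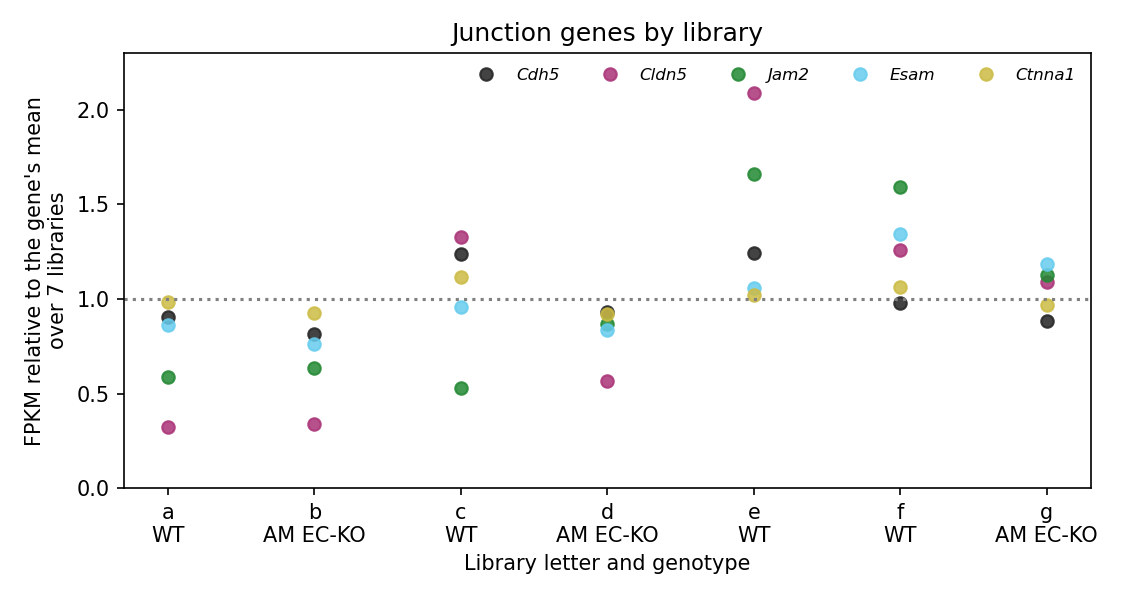
FPKM of 5 junction genes in each library divided by the gene's mean over the 7 libraries (y axis, no unit), with library letter and genotype on the x axis, each point 1 library. *Cldn5* is lowest in WT a and AM EC-KO b, *Jam2* and *Esam* are higher in e, f and g than in a to d, and *Ctnna1* stays close to 1 throughout.

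The 2 genotypes were then compared across the group. In the 7 genes that could be tested, the AM EC-KO mean was lower than the WT mean each time, from 53.4% of it in *Cldn5* and 74.9% in *Tjp1* to 87.9% in *Esam* and 89.7% in *Ctnna1*. None passed the test: with limma on log2(FPKM + 1) and Benjamini-Hochberg adjustment over all 15604 tested genes, 0 of 7 were called at FDR 0.1, where 0.0641% of all genes (10) were called, 0.0320% as lower and 0.0320% as higher. At an unadjusted p under 0.05 there was 1 of 7, *Ctnna1*, against 3.07% of all genes. It was lower, as were 1.42% of all genes, and 0 of 7 were higher, as were 1.65%. A log2 difference below 0 was found in 7 of 7, against 51.8% of all genes, and the median was -0.27, against -0.01 over all genes, but the genes vary together over libraries and are not independent. Groups that did not overlap, with AM EC-KO lower, were found in 2 of 7, *Tjp1* and *Ctnna1*, against 2.22% of all genes. With AM EC-KO higher there were 0 of 7, against 2.91%. In *Tjp1* the closest values were 28.8 FPKM in WT a and 28.5 in AM EC-KO g (estimated counting errors 2.7% and 2.8%). In *Ctnna1* they were 176 and 173 FPKM in the same libraries (1.5% and 1.6%). The 10 calls over all genes fell to 0 when only genes above 0 in every library were tested, as the 7 genes are.

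Cell type markers were compared between the genotypes beside these differences. Of the 12 vascular endothelial markers 11 were tested, and 9 of them had a log2 difference below 0, against 51.8% of all tested genes. Their median was -0.06, and their sums overlapped between the genotypes. By limma at an unadjusted p under 0.05, 1 of the 11 was lower and 0 were higher. Over all tested genes 1.42% were lower and 1.65% higher at this limit. The 5 lymphatic endothelial markers summed to 205 to 274 FPKM in WT and to 151 to 189 in AM EC-KO, without overlap. Of all tested genes, taken singly, 2.22% were lower in AM EC-KO without overlap. The differences of the 5 markers lay on both sides of 0, 3 below and 2 above, with a median of -0.12. *Lyve1*, a hyaluronan receptor of lymphatic vessels, was at -1.35 (SE 0.50, limma unadjusted p = 0.031, adjusted p = 0.95), with overlapping groups. It made up 36.8 to 157 FPKM of the lymphatic sums in WT and 28.2 to 45.2 FPKM in AM EC-KO. With *Lyve1* left out, the sums of the other lymphatic markers overlapped between the genotypes. The 10 smooth muscle and pericyte markers summed to 330.0 to 629 FPKM in WT and to 501 to 675 in AM EC-KO, with overlap. Of these markers 7 had a log2 difference above 0 and 3 below, with a median of 0.19. *Tagln* was at 0.59 (SE 0.24, limma unadjusted p = 0.046, adjusted p = 0.95). The part of these markers in the differences of the junction genes was not tested.

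The largest difference, in *Cldn5*, was also the least certain, at -0.77 (SE 0.66, 95% interval -2.33 to 0.79, limma adjusted p = 0.95) on the log2(FPKM + 1) scale. In *Tjp1* it was -0.37 (SE 0.18, interval -0.80 to 0.06, limma adjusted p = 0.95), with an exact two-sided permutation p of 0.057, which is the smallest that the 35 splits of 4 and 3 libraries allow. *Ctnna1* had a small difference of -0.16 (SE 0.06, interval -0.31 to -0.0031, limma unadjusted p = 0.047 and adjusted p = 0.95), again with an exact p of 0.057. *Cdh5* differed by -0.30 (SE 0.13, interval -0.62 to 0.02) and *F11r* by -0.27 (SE 0.13, interval -0.58 to 0.05), both with an exact permutation p of 0.114. *Esam* differed by -0.19 (SE 0.20, interval -0.66 to 0.28, exact p = 0.400) and *Jam2* by -0.16 (SE 0.46, interval -1.24 to 0.92, exact p = 0.857). For comparison, *Adm* itself differed by -3.10 (SE 0.75, exact p = 0.057), with a limma adjusted p of 0.95 as well. In a bulk sample, less RNA per cell and fewer cells that carry it cannot be told apart.

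**Figure D3:**
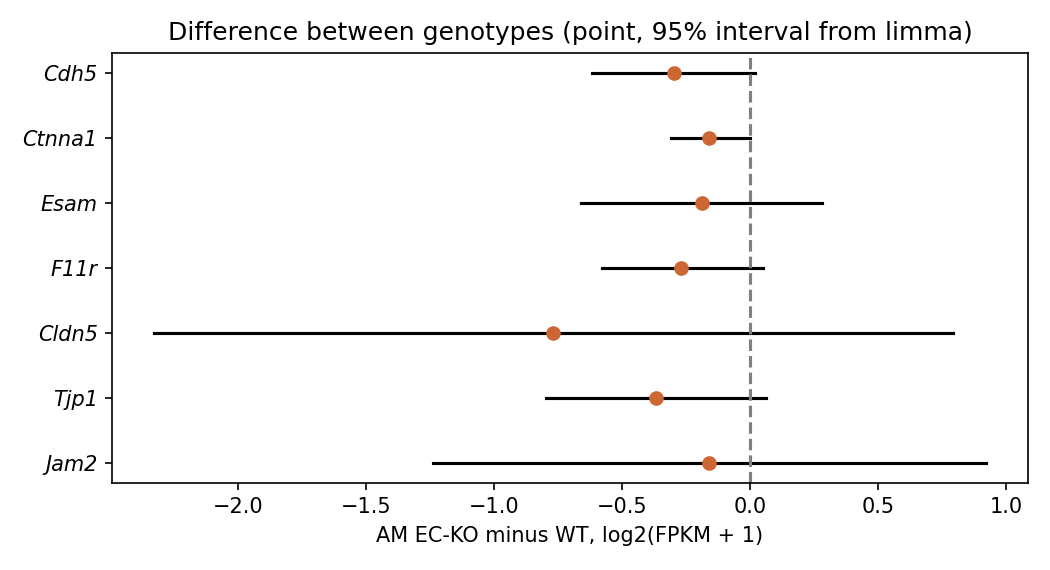
Difference between AM EC-KO and WT in log2(FPKM + 1) (x axis) for the 7 tested genes, with points at the estimate and lines over the 95% interval from limma. All points lie below 0, from -0.16 to -0.77, and only the interval of *Ctnna1* ends below 0, at -0.0031.

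Several of these differences were closer to 0 without WT e, the library with high fibroblast genes. Without it, *Cldn5* differed by -0.44, *Tjp1* by -0.22 and *F11r* by -0.16, while *Cdh5* was at -0.23, *Esam* at -0.18 and *Ctnna1* at -0.17, and *Jam2* changed sign to 0.09, all with a limma adjusted p of 1. *Cldn5* also moved with other single libraries. Its difference was larger without WT a (-1.30) or AM EC-KO g (-1.19) and smaller without AM EC-KO b (-0.39). With a term for libraries e to g against a to d, a fit added after the values were seen, *Jam2* was at 0.02 (SE 0.22) and *Esam* at -0.11 (SE 0.11), and *Ctnna1* stayed at -0.15 (SE 0.06), with limma adjusted p of 0.94 to 0.99 for the 7 genes.

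In other genes of the same junctions the differences lay on both sides of 0. Of 26 further adherens junction genes and cadherin partners 19 could be tested, 8 with a log2 difference above 0 and 11 below, with a median of -0.04 and 0 past FDR 0.1 in either direction by limma or at an unadjusted p under 0.05. Plakoglobin (*Jup*), which can take the place of β-catenin on the cadherin tail, was at 106, 129, 79.1 and 55.7 FPKM for WT (a, c, e, f) and at 104, 109 and 69.4 FPKM for AM EC-KO (b, d, g), and libraries e, f and g were the lowest in both genotypes. Vinculin (*Vcl*), which is drawn to α-catenin under tension, lay between 62.1 and 71.6 FPKM, T-cadherin (*Cdh13*) between 54.4 and 73.0 FPKM and the nectin-like receptor *Pvr* between 43.3 and 55.3 FPKM. p120-catenin (*Ctnnd1*), which keeps VE-cadherin at the membrane, was listed at 0 in all 7 libraries while the authors' group values were 75.3 and 67.5 FPKM, so it could not be compared. Afadin, under its older symbol *Mllt4*, had 34.7 FPKM in WT a and 31.7 FPKM in AM EC-KO b and was listed at 0 in the other 5.

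Of 27 further tight junction genes 19 were tested, with a median of -0.05, 12 below 0 and 7 above, and 0 past FDR 0.1 by limma or at an unadjusted p under 0.05. Paracingulin (*Cgnl1*), an adaptor of both kinds of junction, was at 58.3 to 107 FPKM, and cingulin (*Cgn*) was listed at 0 in every library. *Tjp3*, a scaffold of the same family as *Tjp1*, did not exceed 0.00298 FPKM. JAM-C (*Jam3*) was at 23.7 ± 5.31 FPKM (SD, n = 4) in WT and 28.9 ± 5.26 FPKM (SD, n = 3) in AM EC-KO, with overlapping groups. The scaffold *Mpdz* lay between 17.2 and 31.7 FPKM. Among 23 other claudins 9 were tested, with a median of 0.03 and 0 at an unadjusted p under 0.05 by limma. *Cldn12* was at 8.51 to 14.3 FPKM, similar to *Cldn5* in its lowest libraries, whereas *Cldn3*, *Cldn1* and *Cldn15* stayed at 3.09 FPKM or less.

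Regulators of junction stability were measured from a list of 35 genes, 32 of them tested. Their median was -0.07, with 12 above 0 and 20 below, and 0 were past FDR 0.1 by limma. A log2 difference below 0 was held by 51.8% of all tested genes. WT e had the highest value in 16 of the 32, against 31.0% of all tested genes. The small GTPases *Cdc42*, *Rac1* and *Rhoa*, which shape junctional actin, had nearly equal means in both genotypes, at 189 and 193, 185 and 189.6, and 168 and 179 FPKM in WT and AM EC-KO. By limma at an unadjusted p under 0.05, 1 of the 32 was lower, *Angpt2*, and 1 was higher, *Sox17*. Over all tested genes 1.42% were lower and 1.65% higher. *Angpt2*, an endothelial ligand of Tie2 that can loosen junctions, was at 233, 346, 256 and 149.5 FPKM for WT (a, c, e, f) and at 136, 191 and 91.3 FPKM for AM EC-KO (b, d, g), with overlap between the groups and a difference of -0.82 (SE 0.34, limma adjusted p = 0.95). *Sox17*, an arterial transcription factor, was at 2.99, 4.69, 5.06 and 3.78 FPKM for WT (a, c, e, f) and at 6.09, 8.69 and 10.4 FPKM for AM EC-KO (b, d, g), without overlap, a difference of 0.87 (SE 0.23, limma adjusted p = 0.95, exact p = 0.057). Such groups, higher in AM EC-KO without overlap, were held by 2.91% of all tested genes, and *Sox17* was named after its values were seen. *Heg1*, a receptor that works through the CCM proteins at junctions, was listed at 0 in all but AM EC-KO b, where it was at 50.6 FPKM, but the authors' group values were 110.3 FPKM for WT and 59.1 for AM EC-KO, so it could not be compared either.

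**Figure D4:**
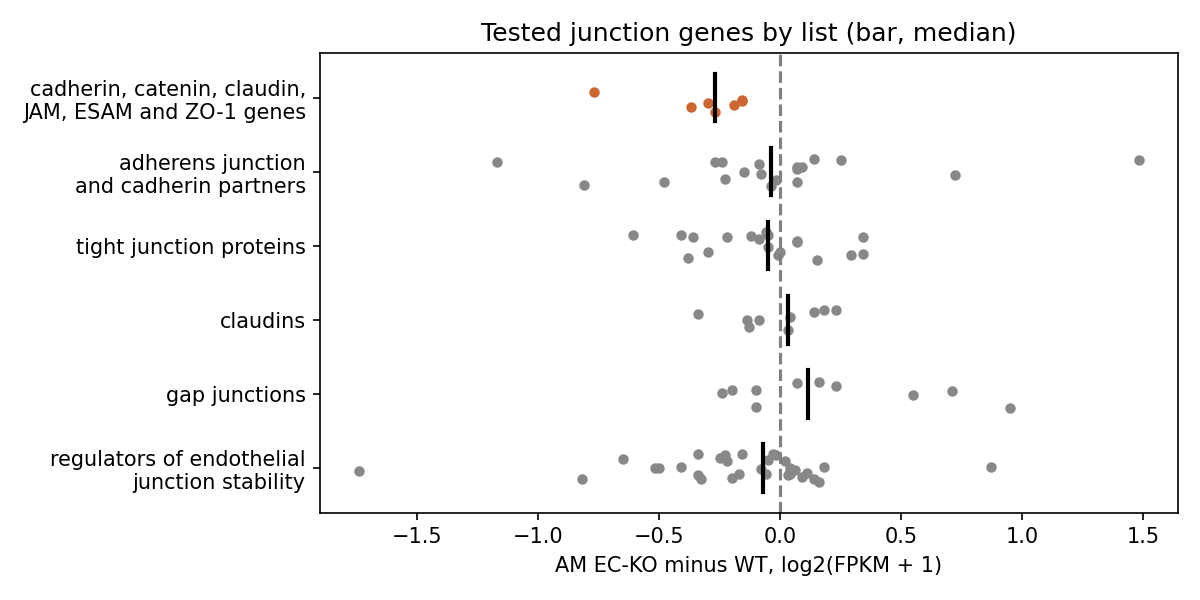
Difference between AM EC-KO and WT in log2(FPKM + 1) (x axis) for every tested gene of the group described here (orange) and of 5 lists of other junction genes (grey), with a bar at each median. The median is -0.27 in the 7 genes and lies between -0.07 and 0.11 in the lists.

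For each of the 7 genes the 3 named genes with the most similar course over the 7 libraries were found by Pearson's r of log2(FPKM + 1) among 5541 candidates. These are descriptions in which every gene is read from the same 7 libraries, and with so many candidates a high r is common: 9 candidates exceeded 0.9 for *Ctnna1* and 189 for *Tjp1*. Among the nearest genes of *Cdh5* were *Sema3f* (r = 0.981) and *Ash2l* (0.976). *Cldn5* was most like *Pofut2* (r = 0.992), *Mapkapk2* (0.977) and the endothelial repressor *Bcl6b* (0.973), which was at 21.9, 40.7, 59.1 and 39.3 FPKM for WT (a, c, e, f) and at 24.1, 33.1 and 42.0 FPKM for AM EC-KO (b, d, g). *Tjp1* had *Atp7a* (r = 0.995), *Eif4g2* (0.994) and *Sec23ip* (0.992) as its nearest genes. *Jam2* went with *Tlr4* (r = 0.985), *Hnrnpf* (0.981) and *Myh10* (0.978), all 3 higher in e, f and g than in a to d. Among those of *F11r* were *Fam174b* (r = 0.987) and *Dazap2* (0.980). *Esam* was most like *E2f6* (r = 0.981), *Id2* (0.979) and *Pcyox1* (0.977), and *Ctnna1* like *Tspan6* (r = 0.978), *Aplp2* (0.962) and *Ica1* (0.956).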

How the data were processed

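RNA of cultured MLEC was sequenced as single reads in 4 WT and 3 AM EC-KO libraries, grouped by their labels. The authors trimmed the reads with Cutadapt, mapped them to GRCm38 with TopHat2 2.0.6 and deposited 1 table of FPKM, per library and per genotype, and the submitters' processing notes also name Cufflinks and Cuffdiff. The table's columns of the authors' own comparisons (log2 fold changes, a splicing score, and p-values with q-values) were deposited by the authors and were not used. For 172 genes it held no library values.

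Library FPKM were tested here as log2(FPKM + 1) with limma 3.58.1 in R 4.3.3, with its trended empirical Bayes step, over all 15604 genes that averaged 0.1 FPKM or more and were above 0 in 3 libraries or more. Calls were made at FDR 0.1 after Benjamini-Hochberg adjustment, and fold changes on this scale understate the change of low genes. *Ocln* and *Ctnnb1* did not pass this filter. In genes that did pass, values listed at 0 were kept as 0, although some may be failed estimates. Tested genes at 0 in a library, with a median of 5 FPKM or more over values above 0, numbered 190 (AM EC-KO b) to 247 (AM EC-KO g). No count model was fitted because the table holds FPKM. Exact tests were two-sided, and the code was tested on simulated data. Python 3.11.15 was used for tables and plots, with pandas 2.3.3, scipy 1.17.1 and matplotlib 3.10.9. Coordinates and overlaps are of GENCODE M21 on GRCm38, and promoters of RefSeq, trimmed to bases outside annotated exons. *Ctnna1* was left out of the promoter search, so whether RefSeq holds a promoter for it was not examined. Estimated read numbers cover counting error only.

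The 9 genes and the lists were chosen with earlier results of these data known. Named besides the 9 genes and *Adm* were, of each junction list, genes past FDR 0.1 and otherwise up to 4 with the highest mean, of each marker list up to 2 with the highest mean, and the 3 genes most like each of the 7 tested genes among named genes above 0 in every library that averaged 10 FPKM or more. *Gjb5*, *Sox17*, *Ctnnd1*, *Mllt4*, *Heg1*, *Cgn*, *Tjp3*, *Ulk4*, *Sftpb*, *Sftpa1*, *Cdh1*, *Epcam*, *Cldn18*, *Ager* and *Nkx2-1* lay outside this rule and were chosen after their values were seen. Of the genes that the rule names, 3 are not reported here. Planned ratios with *Ctnnb1* or *Ocln* could not be given because of the values at 0. Alternatives were a pseudocount of 0.1, no filter or a filter at 1 FPKM, TPM, quantile normalization, limma without a trend, with robust moderation or with array weights, and each library left out. Genes above 0 in every library and a term for libraries e to g were added after seeing the data.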

Additional observations from a re-analysis of the deposited data

Results flagged for a closer look

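*Ocln* in WT e, at 8.10 FPKM, lay farther from the other 3 WT libraries, all listed at 0, than a sample of 4 usually does. *Ctnnb1* in WT a, at 380.0 FPKM, stood apart from the other 3 WT libraries in the same way. In each case the gap was the whole range of the group, above the limit of 0.829 for 4 samples. With the other 3 WT libraries listed at 0, any value above 0 gives this gap, so the mark carries no weight. The rule that chance alone marks about 1 in 20 groups does not hold for values listed at 0. The authors' group values for *Ctnnb1* were 460.5 FPKM for WT and 422 for AM EC-KO, although 6 libraries were listed at 0.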

How the results depend on the processing

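None of the 7 tested genes was called at FDR 0.1 by limma under any of the 17 alternatives, and 0 of the other junction genes were. At an unadjusted p under 0.05 the 7 genes gave 4 without WT a, where 614 of all genes did, 1 under 7 alternatives and 0 under 9, and with each library left out adjusted p ran from 0.85 to 1. The differences of *Cdh5* (-0.39 to -0.23), *Cldn5* (-1.30 to -0.39), *Tjp1* (-0.48 to -0.22), *F11r* (-0.33 to -0.16), *Esam* (-0.38 to -0.06) and *Ctnna1* (-0.19 to -0.12) kept their sign in all alternatives. *Jam2* changed sign to 0.06 with array weights, 0.02 with the term for libraries e to g, and 0.09, 0.07 and 0.04 without WT e, WT f and AM EC-KO b, over a range of -0.43 to 0.09. The 10 calls among all genes became 18 with a pseudocount of 0.1, 0 among genes above 0 in every library (340 at an unadjusted p under 0.05, limma) and 8 to 39 with a library left out, being 39 without WT a, 27 without WT e, 22 without WT c and 21 without WT f. The cause was not tested. Without the filter, limma gave *Ocln* -0.80 (SE 0.84) and *Ctnnb1* -2.14 (SE 2.26), which rest on 1 library each. No paired analysis was possible because the libraries carry letters that are all different and no source ties libraries of the 2 genotypes to each other.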

Other observations

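Gap junctions, which pass small molecules between neighbouring cells, were measured from a list of 20 connexin and pannexin genes, 10 of them tested, with a median log2 difference of 0.11 and 0 past FDR 0.1 by limma (2 higher and 0 lower at an unadjusted p under 0.05, where 1.65% of all tested genes were higher). *Gja1*, the connexin 43 gene, was highest, at 32.7 ± 3.35 FPKM (SD, n = 4) in WT and 30.5 ± 2.48 FPKM (SD, n = 3) in AM EC-KO. *Gjb5* was at 0.689, 0.484, 1.11 and 1.24 FPKM for WT (a, c, e, f) and at 1.75, 1.59 and 1.81 FPKM for AM EC-KO (b, d, g), without overlap, a difference of 0.55 (SE 0.18, limma adjusted p = 0.95). Groups without overlap and higher in AM EC-KO were found in 2.91% of all tested genes. *Gja4*, an arterial connexin, had overlapping groups, at 8.48, 2.40, 15.2 and 2.38 FPKM for WT (a, c, e, f) and at 11.7, 4.03 and 17.6 FPKM for AM EC-KO (b, d, g).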
